A study of Mus musculus with 6 samples.

Results

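The 7 genes described here, Pdgfra, Fgf10, Slit2, Npnt, Tcf21, Inmt and Tmem119, are genes of alveolar fibroblasts, taken by their symbols from the 23238 symbols of the count tables. All 7 were present and all 7 were among the 14057 genes with enough counts to be tested. They were chosen by their measured levels in PM lung relative to PBS lung, so their folds in that comparison are a description and carry no test. RNA was sequenced from lung of mice labelled WT that had received PM i.t., or the vehicle PBS i.t., in 3 samples each. The title calls the PM exposure chronic, and the sources used here do not spell out PM or give dose, duration, strain, sex or age. The deposited table of PBS replicate 2 repeats that of PBS replicate 1 in each of its 23282 entries, so the pair was counted as 1 sample, which left 3 PM and 2 PBS libraries with 7407957 to 8825238 counts each. The ribosomal RNA precursor Rn45s took 15.7% to 25.4% of counts in the PM libraries and 16.3% to 18.2% in the PBS libraries.

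Alveolar fibroblasts lie in the walls between air spaces, next to the alveolar epithelium and the capillaries. They make matrix and growth factors that keep the epithelium, and many of them store lipid. PDGF from neighbouring cells acts on these fibroblasts through the receptor PDGFRA, and FGF10 made by lung mesenchyme acts on epithelium through a splice form of FGFR2, a signal that the lung needs in order to form. TCF21 is a transcription factor of the basic helix-loop-helix family that binds DNA at E-boxes. In a bulk sample, fewer cells of a type and less RNA per cell cannot be told apart.

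Coordinates are those of GENCODE M21 on GRCm38. Pdgfra spans chr5:75152292-75198215, Slit2 chr5:47983138-48307733 and Tmem119 chr5:113793729-113800516. Fgf10 spans chr13:118669791-118792115, Npnt chr3:132881745-132950291, Tcf21 chr10:22817281-22820174 and Inmt chr6:55170626-55175043. Exons of Pdgfra share 456 and 166 bases with the unnamed models Gm42802 and Gm42803 on the opposite strand and 30 bases with a microRNA gene, and those of Fgf10 share 123 bases with the antisense model Gm16263. The sources used here do not say whether counting used strand, so reads of these models cannot be told apart from those of Pdgfra and Fgf10. The other 5 genes share no exon base with another gene.

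Promoter sequence is shown for 4 of the 6 genes with an entry in the RefSeq table for GRCm38.p6: Pdgfra and Inmt, whose counts kept a nearly fixed ratio in the libraries described below, and Slit2 and Npnt, which did not follow them. Each runs 5′ to 3′ on the strand of the gene, from 250 bases before the RefSeq start. It ends before the RefSeq start, or before the first base that GENCODE places in an exon where that comes earlier. For Pdgfra the GENCODE start, at 75152292, lies past the end of the printed stretch. Capitals mark E-boxes (CANNTG), GC boxes (GGGCGG) and TATA boxes (TATAAA) found on either strand.
Pdgfra, chr5:75152001-75152250, plus strand: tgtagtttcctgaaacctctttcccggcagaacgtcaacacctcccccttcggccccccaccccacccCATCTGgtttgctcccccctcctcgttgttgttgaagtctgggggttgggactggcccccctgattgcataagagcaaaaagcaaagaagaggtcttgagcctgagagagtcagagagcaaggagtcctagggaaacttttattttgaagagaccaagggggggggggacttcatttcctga
Inmt, chr6:55175044-55175240, minus strand: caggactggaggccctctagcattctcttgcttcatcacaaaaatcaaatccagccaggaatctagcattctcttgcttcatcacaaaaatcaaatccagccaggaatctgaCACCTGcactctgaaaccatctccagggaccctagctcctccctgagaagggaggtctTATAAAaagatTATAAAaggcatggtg
Slit2, chr5:47982905-47983137, plus strand: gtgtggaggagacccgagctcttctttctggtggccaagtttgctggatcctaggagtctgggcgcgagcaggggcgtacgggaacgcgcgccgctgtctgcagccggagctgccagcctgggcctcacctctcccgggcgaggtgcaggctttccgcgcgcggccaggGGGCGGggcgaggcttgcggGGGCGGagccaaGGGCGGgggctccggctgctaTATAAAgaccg
Npnt, chr3:132950292-132950541, minus strand: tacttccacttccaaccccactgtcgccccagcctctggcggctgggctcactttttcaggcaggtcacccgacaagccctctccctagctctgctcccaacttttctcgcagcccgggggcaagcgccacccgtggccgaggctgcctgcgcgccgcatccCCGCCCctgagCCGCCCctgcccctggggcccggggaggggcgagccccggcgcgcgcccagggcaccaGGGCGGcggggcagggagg

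The promoters differed in CpG content and in the motifs they held. In the 250 bases before the RefSeq start, Slit2 held 25 CpG dinucleotides, Npnt 21, Fgf10 8, Tcf21 5, Pdgfra 4 and Inmt 0, where all windows of the table had a median of 6 and an interquartile range of 2 to 16. Inmt held 2 TATA boxes, which start 80 and 69 bases before the RefSeq start and 27 and 16 bases before the GENCODE start. Slit2 held 1, which starts 28 bases before the RefSeq start and 11 bases before the GENCODE start. A TATA box stood in 12.4% of all 32851 windows. An E-box stood in 66.2% of all windows and in 3 of the 6 genes at their most upstream start: Pdgfra held 1, Inmt 2 and Fgf10 2. The E-box form CAGCTG, in 13% of windows, was found in Inmt only, 14 bases before the RefSeq start and outside the printed stretch. A GC box stood in 32.7% of windows, with 3 each in Slit2 and Npnt and 1 in Fgf10. Of the other motifs searched on both strands, the TEAD motif GGAATG (12.6% of windows) was in none of the 6 genes and the forkhead motif TGTTTAC (3.17%) was in Fgf10 only.

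All 7 genes were lower in PM lung than in PBS lung, in each PM library against each PBS library. Such a separation, with all PM libraries below all PBS libraries, was seen for 16.1% of the genes tested. For Slit2, Tcf21 and Fgf10 the gap between PM replicate 1 and PBS replicate 1 lay within counting error, as given below. The median log2 fold of the 7 genes, PM minus PBS, was -0.62, and the median over all 14057 genes was 0.01. Levels are given in CPM, counts brought to a common library total, with totals scaled by TMM to correct for a few dominant genes, and each fold is the log2 fold of edgeR's fit with its standard error (SE).

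Pdgfra, the receptor tyrosine kinase that marks lung fibroblasts, stood at 97.6, 79.7 and 110.2 CPM in PM replicates 1, 2 and 3, against 170.1 and 160.03 CPM in PBS replicates 1 and 3. PM replicate 2 was the lowest, and the groups were well separated. The mean was 95.8 ± 15.3 CPM in PM lung (SD, n = 3) and 165 ± 7.13 CPM in PBS lung (SD, n = 2), 41.9% lower in PM, with a log2 fold of -0.78 ± 0.14 SE.

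Of the secreted ligands, Slit2, a guidance cue that binds ROBO receptors, stood at 26.1, 21.5 and 17.5 CPM in PM replicates 1, 2 and 3, against 30.1 and 36.6 CPM in PBS replicates 1 and 3. PM replicate 3 was the lowest, and PM replicate 1 came closest to PBS. Its log2 fold was -0.62 ± 0.20 SE, from a mean of 21.7 ± 4.27 CPM in PM lung (SD, n = 3) and of 33.3 ± 4.54 CPM in PBS lung (SD, n = 2). Fgf10, the growth factor for epithelium, had 111, 71 and 74 read counts in PM replicates 1, 2 and 3 and 114 and 128 in PBS replicates 1 and 3. In CPM it stood at 12.97, 10.2 and 9.33 in the PM libraries, against 13.2 and 15.8 in the PBS libraries. PM replicate 1 and PBS replicate 1 could not be told apart: their 95% exact Poisson intervals, which cover counting error only, were 10.7 to 15.6 CPM in the PM library and 10.9 to 15.9 CPM in the PBS library. The log2 fold of Fgf10 was -0.42 ± 0.24 SE.

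Npnt encodes nephronectin, a matrix protein that binds the integrin alpha8 beta1. It stood at 769, 690.2 and 458 CPM in PM replicates 1, 2 and 3, against 818 and 809.7 CPM in PBS replicates 1 and 3. PM replicate 3 set Npnt apart: it lay 43.8% below the PBS mean, while PM replicates 1 and 2 lay 5.49% and 15.2% below it. The log2 fold was -0.35 ± 0.20 SE, the smallest of the 7, and it was -0.16 without PM replicate 3. Tcf21, the helix-loop-helix factor that mouse lung mesenchyme needs to develop, stood at 50.6, 44.4 and 37.6 CPM in PM replicates 1, 2 and 3, against 56.0 and 66.8 CPM in PBS replicates 1 and 3. The gap between PM replicate 1 and PBS replicate 1 was smaller than the gap between the PBS libraries, and the log2 fold was -0.47 ± 0.16 SE.

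Inmt, an enzyme that methylates tryptamine and related indole amines, was the most abundant of the 7 genes. It stood at 1721, 1265 and 1712 CPM in PM replicates 1, 2 and 3, against 2753 and 2568 CPM in PBS replicates 1 and 3. As for Pdgfra, PM replicate 2 was the lowest. The mean was 41.1% lower in PM lung, and the log2 fold was -0.76 ± 0.15 SE.

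Tmem119, a membrane protein best known from microglia and from differentiating osteoblasts, differed most. It stood at 37.6, 34.97 and 32.3 CPM in PM replicates 1, 2 and 3, against 69.5 and 71.9 CPM in PBS replicates 1 and 3. The PM libraries lay 46.8%, 50.5% and 54.3% below the PBS mean, the narrowest spread of the 7 genes. The log2 fold was -1.02 ± 0.13 SE, and 126 of the 14057 genes tested had a lower one. Tmem119 was the 1 gene of the 7 at an adjusted p below 0.05 in edgeR's quasi-likelihood test, where 0.0854% of all genes were called lower, and nothing is read from that count since this comparison chose the genes.

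**Figure D1:**
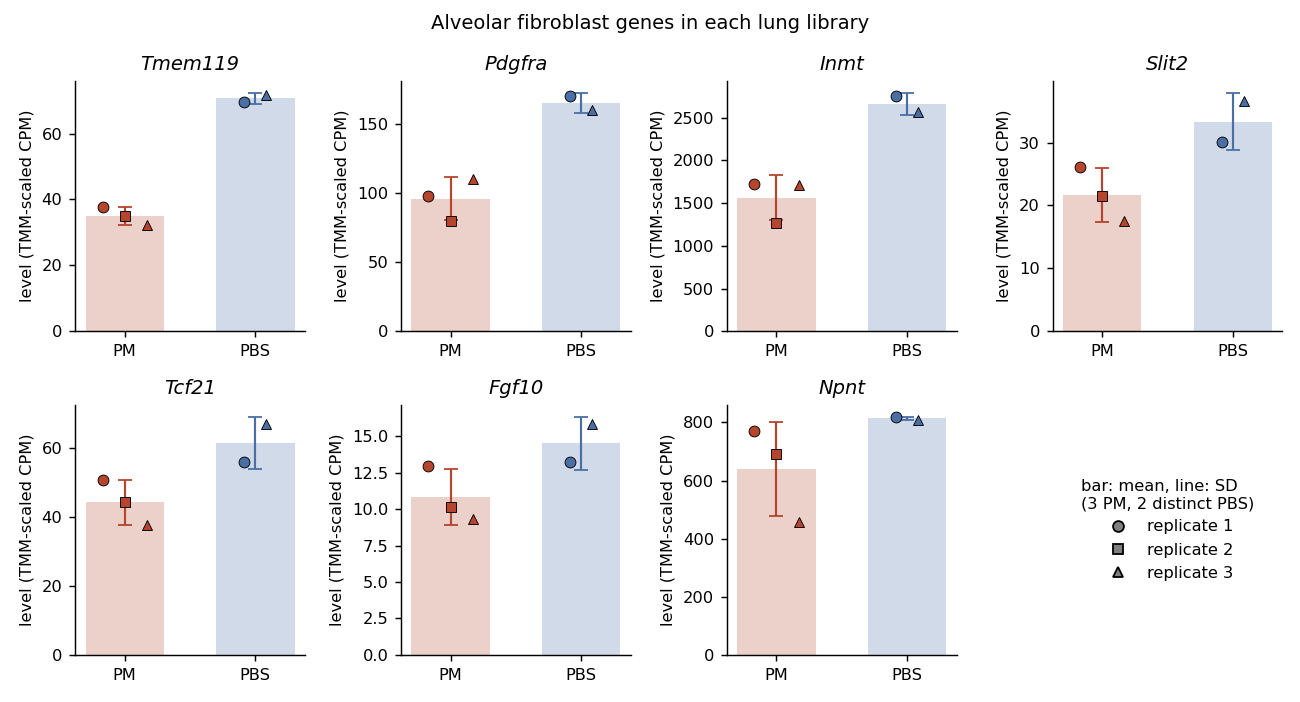
Level of each of the 7 genes in TMM-scaled CPM (vertical axes, from 0) in the 3 PM and 2 distinct PBS libraries; points are libraries, with the replicate number as the symbol, bars are means and lines are SD. Tmem119 shows the widest separation, at 32.3 to 37.6 CPM in PM and 69.5 to 71.9 CPM in PBS, while Fgf10 in PM replicate 1 (12.97 CPM) nearly meets PBS replicate 1 (13.2 CPM).

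The 7 genes did not follow 1 order over the PM libraries. Pdgfra and Inmt were lowest in PM replicate 2, at log2 differences from the PBS mean of -1.05 and -1.07. The other 5 genes were lowest in PM replicate 3. Slit2 was at -0.92 there, Npnt at -0.83, Tcf21 at -0.70, Fgf10 at -0.63 and Tmem119 at -1.13. Of these 5, Npnt alone had 95% Poisson intervals apart in PM replicates 2 and 3, at 671 to 710 and 443 to 473 CPM. For Slit2, Tcf21, Fgf10 and Tmem119 these intervals overlapped, so counting error does not resolve which of the 2 libraries was lowest. PM replicate 1 was the lowest library for none of the 7. The median over the 7 genes was -0.35, -0.63 and -0.70 in PM replicates 1, 2 and 3. Among all 2267 genes tested with every PM library below every PBS library, 48.4% were lowest in PM replicate 2, 27.5% in PM replicate 3 and 24.1% in PM replicate 1.

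**Figure D2:**
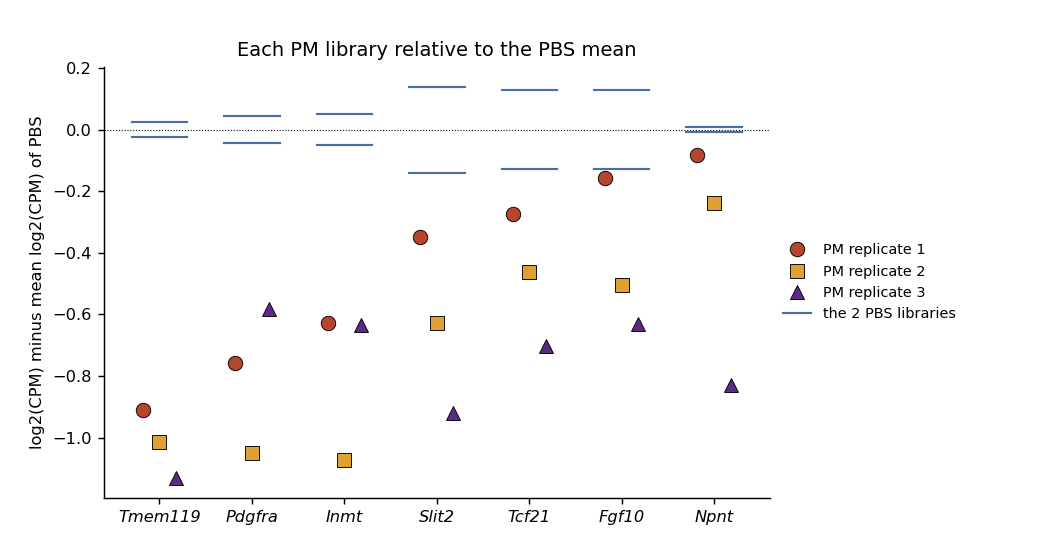
Difference in log2 CPM between each PM library and the mean log2 CPM of PBS (vertical axis) for the 7 genes; symbols are the PM libraries and the blue lines the 2 PBS libraries. Pdgfra and Inmt are lowest in PM replicate 2 (-1.05 and -1.07), and the other 5 genes in PM replicate 3. For Slit2, Tcf21, Fgf10 and Tmem119 counting error does not resolve PM replicate 3 from PM replicate 2.

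Ratios between genes inside a library do not depend on how libraries are scaled. The ratio of Pdgfra to Inmt counts was 0.0567, 0.0630 and 0.0644 in PM replicates 1, 2 and 3 and 0.0618 and 0.0623 in PBS replicates 1 and 3, so both genes were lower by nearly the same factor. The ratio of Tcf21 to Fgf10 was likewise even, at 3.90, 4.37 and 4.03 in PM and 4.24 and 4.23 in PBS. Pdgfra to Npnt was uneven among the PM libraries, at 0.127, 0.115 and 0.241 in PM replicates 1, 2 and 3, against 0.208 and 0.198 in PBS. PM replicate 3 lay above both PBS libraries in this ratio, and PM replicates 1 and 2 lay below them. Tmem119 was lower relative to Npnt and Tcf21. Npnt to Tmem119 was 20.4, 19.7 and 14.2 in PM, against 11.8 and 11.3 in PBS. Tcf21 to Tmem119 was 1.34, 1.27 and 1.16 in PM, against 0.805 and 0.930 in PBS. Both ratios were higher in every PM library than in either PBS library. They were not alone in this: of all 21 pairs of these genes, 4 ratios were higher in every PM library, 2 were lower and 15 overlapped. By level, 15.5% of all genes tested were higher in every PM library and 16.1% lower. No share was taken over ratios of other genes, and the pairs share genes, so nothing is read from these counts. Tmem119 was also lower relative to Fgf10 and Slit2, and Tcf21 and Fgf10 were higher relative to Slit2, each with no overlap. The ratio of Pdgfra to Tmem119 overlapped between groups, at 2.28 to 3.41 in PM and 2.23 and 2.45 in PBS.

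**Figure D3:**
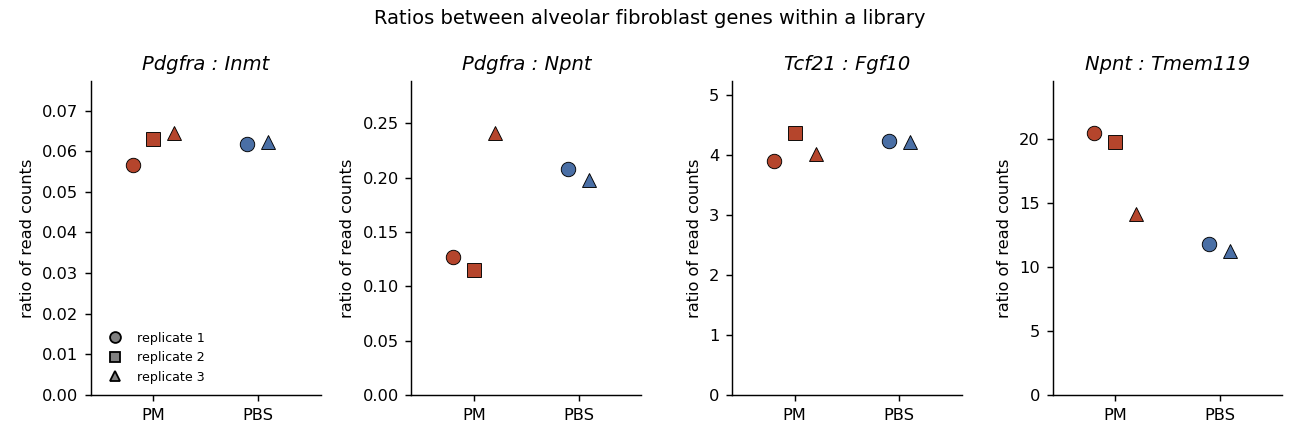
Ratio of read counts between pairs of the 7 genes within each library (vertical axes, from 0), with the replicate number as the symbol. Pdgfra to Inmt stays between 0.0567 and 0.0644 in all 5 libraries, whereas Npnt to Tmem119 is 14.2 to 20.4 in PM and 11.3 to 11.8 in PBS.

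Per kilobase of exon in GENCODE M21, the order of the levels was led by Inmt, at 790.5 to 1076 CPM per kilobase in PM and 1605 to 1721 in PBS. Npnt followed, with 91.1 to 153 CPM per kilobase in PM and 161 to 163 in PBS. Tcf21 and Tmem119 changed places: in PM lung Tcf21 stood at 16.0 to 21.5 and Tmem119 at 13.9 to 16.3, while in PBS lung Tcf21 stood at 23.8 to 28.4 and Tmem119 at 30.04 to 31.04. Within each library Tcf21 was above Tmem119 in PM and below it in PBS. Pdgfra came next, at 7.95 to 10.995 in PM and 15.96 to 16.97 in PBS. Fgf10 had 2.03 to 2.82 in PM and 2.87 to 3.44 in PBS, and Slit2 0.689 to 1.02 in PM and 1.18 to 1.44 in PBS. The exon length of Slit2, 25433 bases over all its annotated transcripts, makes its level per kilobase a low estimate.

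Other markers of alveolar fibroblasts mostly had negative folds as well. Of 24 further names, 23 were in the tables and tested, 3 fell and 0 rose at an adjusted p below 0.05 in edgeR's test over all genes, adjusted by the method of Benjamini and Hochberg, where 0.0854% of genes were called lower and 0.142% higher. Their median log2 fold was -0.51, against 0.01 over all genes tested, and 16 of the 23 had every PM library below every PBS library, against 16.1% of all genes. This separation was not particular to them: 8 of 10 alveolar type 1 genes and 8 of 12 endothelial genes had it too. The list of other alveolar fibroblast markers was written with earlier results of these data known, so it is no independent evidence of direction. Wnt2, a Wnt ligand of lung mesenchyme, had 18.8, 14.6 and 17.2 CPM in PM and 35.8 and 34.8 CPM in PBS. Scn3a, a sodium channel subunit, had 42.9, 28.5 and 36.8 CPM in PM and 75.9 and 69.9 CPM in PBS. Limch1, which activates non-muscle myosin, had 1015, 845 and 943 CPM in PM and 1564 and 1502 CPM in PBS. Each of the 3 fell, with log2 folds of -1.06 ± 0.17, -1.01 ± 0.17 and -0.71 ± 0.12 SE and adjusted p-values of 0.0379 each in edgeR's test. None of the 3 passed without PBS replicate 1 or without PBS replicate 3, fits that leave 1 PBS library and cannot decide whether the calls hold. None passed without PM replicate 1 either, where edgeR called 12 genes in all. DESeq2, which called 0.818% of all genes lower and 1.9% higher, called all 3.

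The 20 markers that did not pass had log2 folds between -0.90 and 0.56 and adjusted p-values from 0.0592 to 0.793 in edgeR's test. Of these folds 18 were negative, against 48.9% over all genes. Slc7a10, an amino acid transporter, stood at 32.7, 33.1 and 24.6 CPM in PM and 55.3 and 50.8 CPM in PBS. Fgfr4, an FGF receptor, stood at 33.1, 30.2 and 22.6 CPM in PM and 41.5 and 49.1 CPM in PBS. Figf, which encodes VEGF-D, stood at 59.3, 45.1 and 67.7 CPM in PM and 97.7 and 99.0 CPM in PBS, with the highest PM value in replicate 3 as for Pdgfra. Of the 16 markers with all PM libraries lower, 12 were lowest in PM replicate 2 and 4 in PM replicate 3. The 2 positive folds were those of Lpl and Plin2. Lpl, lipoprotein lipase, had 204, 188 and 218 CPM in PM and 145 and 130.4 CPM in PBS, with no overlap between groups. Plin2, a lipid droplet coat protein, overlapped between groups, at 93.0, 113 and 72.0 CPM in PM and 87.7 and 79.0 CPM in PBS. Neither passed edgeR's test, with adjusted p-values of 0.0634 and 0.766, while DESeq2 called Lpl higher (adjusted p = 0.00395). Macrophages express both genes too.

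Partners of the 7 genes in their pathways gave 0 calls by edgeR in either direction, in lists of PDGF (7 tested), FGF (18), SLIT and ROBO (11), nephronectin (13), TCF21 (9) and small-molecule methyltransferase genes (15). Without adjustment, at a p below 0.05, these lists had 3, 3, 0, 2, 1 and 1 genes lower and 0, 0, 0, 0, 0 and 2 higher, where all genes gave 6.05% lower and 7.26% higher, and DESeq2 called 1 gene in the nephronectin list and 0 in the others. Itga8, the alpha chain of the nephronectin receptor, was that gene. It is also among the 23 other alveolar fibroblast markers, as is Fgfr4 of the FGF list. Itga8 stood at 63.2, 45.6 and 76.3 CPM in PM and 113 and 117 CPM in PBS. The log2 fold of Itga8 was -0.90 ± 0.18 SE. The adjusted p was 0.0690 in edgeR's test and 0.00279 in DESeq2. Itgb1, the beta chain, was at -0.20 ± 0.11.

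For PDGF, the second receptor gene Pdgfrb, typical of pericytes, had a log2 fold of -0.50 ± 0.16 SE, at 52.9, 51.0 and 37.5 CPM in PM and 69.9 and 63.7 CPM in PBS. The ligand genes Pdgfa and Pdgfb were at -0.23 ± 0.18 and -0.44 ± 0.14, and Pdgfc, at 3.44 CPM or less in every library, at 1.18 ± 0.71. For FGF10, the receptor gene Fgfr2 was at -0.02 ± 0.15, with 76.4 to 108 CPM in PM and 91.6 and 98.5 CPM in PBS. Spry2, a feedback inhibitor induced by FGF, was at -0.40 ± 0.15, Etv5, an FGF-responsive transcription factor of type 2 cells, at 0.19 ± 0.13, Fgfr1 at 0.23 ± 0.20 and the related ligand gene Fgf7 at -0.05 ± 0.30. For SLIT2, the receptor genes Robo1, Robo2 and Robo4, the last of endothelium, were at -0.55 ± 0.45, -0.39 ± 0.22 and -0.22 ± 0.14, and Slit3 at -0.26 ± 0.25. Of the genes of the E proteins that pair with TCF21, Tcf3 was at -0.12 ± 0.17, Tcf4 at -0.25 ± 0.11 and Tcf12 at -0.27 ± 0.12, with no overlap between groups for Tcf4 and Tcf12. Hnmt, which methylates histamine, was at 0.36 ± 0.22, and Nnmt, which methylates nicotinamide, was below the count filter at 0.468 to 1.003 CPM in PM and 0.579 and 0.864 CPM in PBS.

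The lists of other fibroblasts and mesenchymal cells had medians nearer 0. The median log2 fold was -0.05 for adventitial fibroblast genes (16 tested), -0.19 for peribronchial and duct myofibroblast genes (13), 0.14 for genes of activated, matrix-producing fibroblasts (16), -0.26 for genes shared by lung mesenchyme (20) and -0.23 for smooth muscle and pericyte genes (15). In these lists 0 genes passed edgeR's test. Without adjustment, at a p below 0.05, 2, 2, 1, 7 and 5 genes were lower and 2, 1, 2, 2 and 1 higher, and DESeq2 called 1, 0, 0, 2 and 2 lower and 1, 0, 2, 0 and 1 higher. Over all genes the shares were 6.05% lower and 7.26% higher without adjustment, and 0.818% lower and 1.9% higher by DESeq2. Shared mesenchymal genes lay above the shares lower, with 7 of 20 without adjustment and 2 by DESeq2. So did smooth muscle and pericyte genes, with 5 of 15 and 2. Several of the other counts lie near the shares. Every PM library was below every PBS library for 9 of these 20 genes and 5 of these 15, against 16.1% of all genes. Set against the mean log2 level of the 20 shared mesenchymal genes in the same library, Tmem119 was 0.83 lower in PM than in PBS, as -0.996 in PM and -0.168 in PBS. Pdgfra and Inmt were 0.61 and 0.60 lower on this scale, Slit2 and Tcf21 0.44 and 0.29 lower, each with no overlap between groups. Fgf10 and Npnt overlapped between groups on it, with differences of -0.23 and -0.20. Set against the 10 alveolar type 1 genes, Slit2 and Tcf21 overlapped between groups as well, at -0.31 and -0.17. Set against the 23 other alveolar fibroblast markers they also overlapped, at -0.13 and 0.02, as did Fgf10 at 0.08 and Npnt at 0.11. Tmem119, Pdgfra and Inmt were lower with no overlap on that last scale, at -0.51, -0.30 and -0.28.

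**Figure D4:**
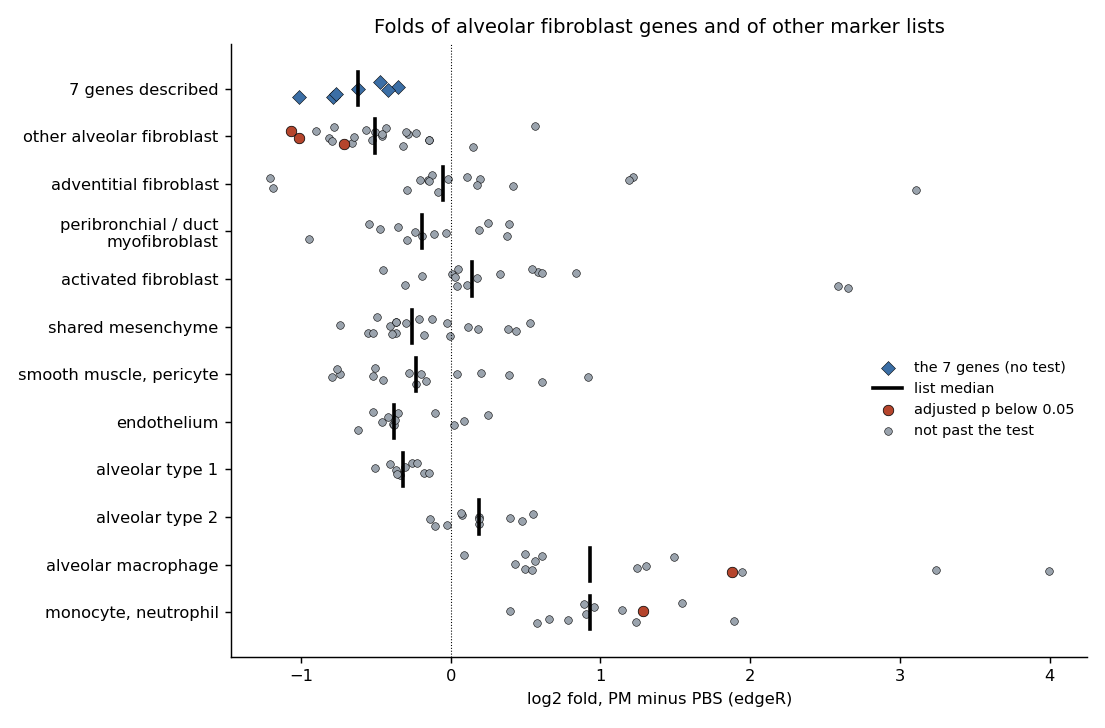
Log2 fold, PM minus PBS, of each gene (points, horizontal axis) in the 7 genes described and in lists of other lung cell markers. Black lines are list medians. Red points passed edgeR's test at an adjusted p below 0.05, and the 7 genes are drawn without calls, Tmem119 included. The medians of the 7 genes and of the other alveolar fibroblast markers lie at -0.62 and -0.51, those of alveolar macrophage and of monocyte and neutrophil markers both at 0.93.

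Markers of other cell types moved with these differences, and their part in them was not tested. The counts of calls given for them stand beside 6.05% of all genes lower and 7.26% higher at a p below 0.05 without adjustment, and 0.818% lower and 1.9% higher by DESeq2. Of the 14 alveolar macrophage genes all 14 had a positive fold, with a median of 0.93. Their summed level was 1714 to 2168 CPM in PM and 739.6 to 1009 CPM in PBS. Chil3 alone stood at 591, 1014 and 453 CPM in PM and 18.2 and 127 CPM in PBS. The list also holds Lpl, counted above among the alveolar fibroblast markers. Ctsk, a lysosomal protease, rose (edgeR, adjusted p = 0.0140). Of the 12 monocyte and neutrophil genes all 12 had a positive fold. Every PM library was above every PBS library for 6 of the 12, against 15.5% of all genes. The summed level was 461, 419.9 and 1135 CPM in PM replicates 1, 2 and 3 and 249 to 375 CPM in PBS. S100a8 and S100a9, at 342 and 460 CPM in PM replicate 3, overlapped between groups. Ccr2, the receptor for CCL2, rose (edgeR, adjusted p = 0.0142). Both calls were lost without PBS replicate 1 and without PBS replicate 3. Each of those fits has 1 PBS library left and cannot decide whether the calls of Ctsk and Ccr2 hold. Without adjustment 7 of the macrophage genes and 6 of the monocyte and neutrophil genes were higher and 0 of either lower at a p below 0.05, and DESeq2 called 6 and 5 higher. The 12 airway epithelial genes summed to 17930 to 34050 CPM in PM and 21842 to 22563 CPM in PBS, with 10 of 11 tested genes positive and Muc5ac and Clca1 at 0 counts in both PBS libraries. Most of that sum was Scgb1a1, which overlapped between groups, at 15500, 21220 and 30526 CPM in PM and 19966 and 20448 CPM in PBS. Erythroid genes summed to 5916 to 18749 CPM in PM and 15127 to 55485 CPM in PBS. Neither list had a gene called by edgeR. Without adjustment 6 airway genes and 0 erythroid genes were higher at a p below 0.05 and 0 of either lower, and DESeq2 called 5 airway genes higher and 0 erythroid genes. Of the other cells of the alveolar wall, alveolar type 1 genes had a median of -0.32 (10 of 10 negative) and endothelial genes of -0.38 (9 of 12 negative), each with 0 calls by edgeR. Without adjustment 6 and 8 of them were lower and 0 and 0 higher at a p below 0.05, and DESeq2 called 2 and 1 lower. Alveolar type 2 genes had a median of 0.19, with 0 calls by edgeR or DESeq2 and, without adjustment, 3 genes higher and 0 lower. The remaining lists had 0 calls by edgeR as well: lymphocyte genes had a median of -0.02 and mesothelial genes one of -0.27. Without adjustment each had 1 gene lower and 0 higher at a p below 0.05, and DESeq2 called 1 lymphocyte gene lower and 0 mesothelial genes.

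The other genes known, like Tmem119, from microglia or osteoblasts were set beside it. The median log2 fold was -0.17 over 11 genes known from microglia and -0.03 over 7 known from osteoblasts, and 0 of either list passed edgeR's test. Without adjustment, at a p below 0.05, 3 and 1 were higher and 2 and 0 lower, and DESeq2 called 1 higher in each. P2ry12, a purine receptor of microglia, stood at 0.818 to 1.39 CPM in PM and 0.988 and 1.62 CPM in PBS. Sall1, a microglial transcription factor, had a highest level of 0.464 CPM in any library. Tmem119 stood at 32.3 CPM or more in every library. Cx3cr1, which other macrophages express too, had a log2 fold of -0.10 ± 0.29. Of the osteoblast transcription factors, Runx2 was at 0.09 ± 0.29, and Sp7 had 0 counts in every library, which allows up to 0.348 to 0.430 CPM by counting error alone.

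The genes closest to these profiles were sought among 9015 other genes with a mean of at least 10 CPM, by the root mean square (RMS) difference of log2(CPM + 0.5), centred on its own mean over the 5 libraries. Closest to Tmem119 were Colq, the collagen-like tail of acetylcholinesterase, at an RMS difference of 0.08, Ppp4r4 at 0.11, Scube2 at 0.11, Wnt2 at 0.12 and Hilpda, a lipid droplet protein, at 0.13. Colq had 9.35, 9.03 and 7.31 CPM in PM and 16.3 and 19.3 CPM in PBS. Of the 6 fellow genes, Inmt came closest to Tmem119 at 0.21 and Npnt was farthest at 0.36. Closest to the mean profile of the 7 genes were Gimap6, a GTPase gene of lymphocytes and endothelium, Rasl12, Lipg, an endothelial lipase, Egflam and Antxr2, an anthrax toxin receptor that binds matrix, at 0.02 to 0.06. Gimap6 had 36.1, 29.4 and 29.3 CPM in PM and 48.9 and 50.3 CPM in PBS. Slit2 lay nearest the mean profile of the 7 genes among its members, at 0.10, and Npnt farthest, at 0.22.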

How the data were processed

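The authors deposited raw read counts per gene symbol, with no normalization; total RNA was extracted with easy-BLUE and libraries were made with the Lexogen SENSE mRNA kit, per the labels' protocols. TopHat, Cufflinks and mm10 are named without role or version, per the submitters' processing notes, with the counting program and annotation not given in the sources used here. A design of 6 libraries became one of 5, since the tables of PBS replicates 1 and 2 are identical; 2 blank entries were left out, and of entries sharing a symbol the one with the highest total was kept (44 set aside, 0.0251% of counts). Counts were fitted with edgeR 4.0.16 in R 4.3.3 (filterByExpr, TMM, robust quasi-likelihood test, two-sided, no covariates), with Benjamini-Hochberg adjustment over 14057 genes and calls at 0.05. SE was computed as fold over root F. DESeq2 1.42.0, other scalings and filters, a replicate block and each library left out were alternatives. The procedure was tested on simulated data. The 7 genes and all lists were chosen with earlier results of these data known; list members past the test, at most 4 a list by fold, partners of each gene and nearest profiles were named by rule, and other genes were named after their values were seen. Of the genes the rule named, 1 is not reported here. The labels do not name separate animals, and p-values therefore cover only the spread between samples, which may be technical. Total counts were 7407957 to 8825238 per library. Sequences are from RefSeq (GRCm38.p6) and gene models from GENCODE M21, both of the assembly of mm10. Tmem119 had no entry in the promoter table.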

Additional observations from a re-analysis of the deposited data

How the results depend on the processing

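The folds of the 7 genes kept their sign under all 13 alternatives, each within the spread between replicates. The genes were chosen by this comparison, with every PM library below every PBS library, so leaving out a library could hardly reverse a sign. The median of the 7 folds ran from -0.77 to -0.47 (-0.62 as reported). That of the other alveolar fibroblast markers ran from -0.56 to -0.43 (-0.51), and the fold of Tmem119 from -1.07 to -0.96. The number of genes called depended on the setting, and the cause was not tested. As reported, 32 genes were called, 20 higher and 12 lower. With no scaling factors there were 51 (40 higher), with no filter 275 (165 higher and 110 lower), with at least 1 CPM in 2 libraries 81 (50 and 31), with DESeq2 382 (267 and 115), and with all 6 tables as deposited, which counts 1 library as 2, 635 (346 and 289). Leaving out single libraries gave 1 to 427 calls, 1 to 261 higher and 0 to 166 lower: 1 without PBS replicate 1, 6 without PBS replicate 3, 12, 106 and 427 without PM replicates 1, 2 and 3. The other alveolar fibroblast markers called lower were 3 as reported, 6 with no filter, 7 with DESeq2, 10 with all 6 tables, and 0 to 11 with single libraries left out. Genes called in the remaining lists were 2 as reported, 15 with no filter, 5 with at least 1 CPM in 2 libraries, 28 with DESeq2, 32 with all 6 tables, and 0 to 18 with single libraries left out. With the replicate number as a block, 353 genes were called (221 higher and 132 lower), 8 of the other alveolar fibroblast markers and 33 genes of the remaining lists; the samples share only a number, with 2 numbers present in both groups, and the correlation of deviations was -0.03 and 0.06 for same-numbered libraries. Without either PBS replicate, 1 PBS library remains. With 3 PM and 2 PBS libraries, a gene with about as many counts as Fgf10 (71 to 128) cannot show differences inside its counting intervals. For Slit2 and Tcf21 the intervals of PM replicate 1 and PBS replicate 1 overlapped as well.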
